A study of Mus musculus with 8 samples.

Results

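The 10 CC chemokine ligand genes Ccl2, Ccl3, Ccl4, Ccl6, Ccl7, Ccl8, Ccl9, Ccl12, Ccl22 and Ccl24 were described in myeloid cells of the mouse sciatic nerve. They were taken by gene symbol from the 30406 genes that all 4 single-cell libraries had in common, and all 10 passed the filter on low counts that left 11485 genes for testing. The 1-week files listed 31053 genes and the 15-week files 32285, so the gene lists used for counting differed between the times. Cells sorted as CD45+ and CD11b+ came from nerves of male and female C57BL/6JolaHsd mice. The nerve had been exposed and left untouched (sham), partially ligated with a suture (partial sciatic nerve ligation, PSNL, after which the injury persists) or crushed with forceps (after which axons regrow). Nerves were taken at 1 week, with 2 sham, 2 PSNL and 2 crush samples (1 female and 1 male each), and at 15 weeks, with 4 PSNL samples (F1, F2, M1 and M2) and 3 crush samples (F1, F2 and M1). There was no sham group at 15 weeks. A sample is the set of cells carrying one hashtag, an antibody with a barcode that marks the cells of one source before samples are mixed in a library, and neither the labels nor the methods state how many mice contributed to each hashtag. P-values therefore measure the spread between these samples.

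Chemokines are small secreted proteins that guide leukocytes along concentration gradients by binding receptors coupled to G proteins, and the CC family is named for a pair of adjacent cysteines near the start of the mature protein. Ccl2, Ccl7 and Ccl12 bind Ccr2 and draw monocytes, Ccl3 and Ccl4 draw macrophages and T cells, Ccl3, Ccl6 and Ccl9 bind Ccr1, Ccl8 of the mouse binds Ccr8, Ccl22 binds Ccr4 on T cells, and Ccl24 binds Ccr3 on eosinophils. In an injured nerve, Schwann cells and macrophages release such ligands, and the recruited monocytes become macrophages that clear myelin.

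The sequence that names the family is shown for 9 of the genes, because it is what they share whatever their expression. Each line gives 30 bases of the coding sequence, 5′ to 3′ and in frame, from the longest coding transcript of GENCODE M21 (build GRCm38, the build named in the submitters' processing notes), and the capitals mark the codons of the 2 adjacent cysteines.
Ccl2: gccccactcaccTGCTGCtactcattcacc
Ccl4: cctcccacttccTGCTGTttctcttacacc
Ccl6: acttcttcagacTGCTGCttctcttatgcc
Ccl7: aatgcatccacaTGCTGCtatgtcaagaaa
Ccl8: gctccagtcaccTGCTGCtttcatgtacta
Ccl9: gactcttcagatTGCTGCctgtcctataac
Ccl12: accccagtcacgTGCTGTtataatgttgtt
Ccl22: gaagacagtatcTGCTGCcaggactacatc
Ccl24: atcccctcatctTGCTGCacgtcctttatt
Each of these windows held the cysteine pair, with TGT as the second codon in Ccl4 and Ccl12 and TGC in the others.

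Of the 10 genes, 8 lay in 2 groups on chromosome 11. Ccl2 (chr11:82035571-82037453), Ccl7 (chr11:82045712-82047525), Ccl12 (chr11:82101845-82103400) and Ccl8 (chr11:82115185-82116799) followed each other on the plus strand, while Ccl9 (chr11:83572919-83578636), Ccl6 (chr11:83587882-83593087) and Ccl3 (chr11:83647844-83649355) lay on the minus strand beside Ccl4 (chr11:83662584-83664683) on the plus strand. Ccl22 (chr8:94745590-94751699, plus strand) and Ccl24 (chr5:135569937-135573049, minus strand) lay alone. In an alignment of coding sequences, Ccl3 and Ccl4, 13.2 kb apart, were the most alike of the 45 pairs, at 69.5% identical bases. Ccl6 and Ccl9, 9.25 kb apart, followed at 66.8%. The longest run of bases shared by transcripts of any 2 of the 10 genes was 25 (Ccl6 and Ccl9), and no run of 50 bases of their transcripts occurred in another gene except 59 of the 2996 such runs of Ccl9, which are repeat sequence found in many genes.

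The upstream sequences of 2 neighbouring pairs are shown. Ccl8 and Ccl12 were the members called higher at 15 weeks after PSNL, although the Ccl12 call was lost in several alternatives given below. Their detection in the same cells was little related, whereas Ccl6 and Ccl9 were among the pairs with the highest co-detection. RefSeq held promoters for 6 of the 10 genes (Ccl3, Ccl6, Ccl8, Ccl9, Ccl12 and Ccl22; build GRCm38.p6), and each line gives the 250 bases before the start site, 5′ to 3′ on the gene's strand, for Ccl8 (chr11:82114935-82115184, plus), Ccl12 (chr11:82101595-82101844, plus), Ccl6 (chr11:83593088-83593337, minus) and Ccl9 (chr11:83578637-83578886, minus). Capitals mark matches, on either strand, to the TATA box (letters TATAAAA) and to the AP-1 motif, whose letters are given after the sequences.
Ccl8: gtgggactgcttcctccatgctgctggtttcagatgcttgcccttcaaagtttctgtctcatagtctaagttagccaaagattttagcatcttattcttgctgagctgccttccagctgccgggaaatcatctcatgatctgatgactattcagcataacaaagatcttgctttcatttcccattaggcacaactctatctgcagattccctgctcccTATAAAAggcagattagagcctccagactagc
Ccl12: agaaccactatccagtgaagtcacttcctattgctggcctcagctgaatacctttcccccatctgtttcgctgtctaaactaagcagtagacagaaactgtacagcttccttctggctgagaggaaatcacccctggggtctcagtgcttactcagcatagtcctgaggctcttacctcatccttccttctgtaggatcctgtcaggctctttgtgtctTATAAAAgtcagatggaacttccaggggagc
Ccl6: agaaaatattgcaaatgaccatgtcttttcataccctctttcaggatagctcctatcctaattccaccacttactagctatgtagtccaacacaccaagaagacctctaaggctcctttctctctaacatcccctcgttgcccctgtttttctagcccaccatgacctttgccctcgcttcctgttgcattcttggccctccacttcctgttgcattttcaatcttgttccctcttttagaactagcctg
Ccl9: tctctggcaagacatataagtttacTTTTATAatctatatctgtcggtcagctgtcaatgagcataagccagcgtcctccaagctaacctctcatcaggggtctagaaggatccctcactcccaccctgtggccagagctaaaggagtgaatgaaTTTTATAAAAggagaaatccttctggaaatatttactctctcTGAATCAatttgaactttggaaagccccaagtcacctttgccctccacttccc
The TATA letters began at position -32 from the start site in Ccl8 and at position -31 in Ccl12, and 4.98% of 32851 promoters of this length held it. Ccl9 held it at positions -225, -95 and -92, with an overlap of 4 bases between the last 2. The AP-1 letters TGANTCA, held by 6.75% of promoters, lay at position -53 of Ccl9. None of the letters lay in the upstream sequence of Ccl6. Ccl8 and Ccl12 had the most alike upstream sequences of the 15 pairs, at 57.5% identical bases, whereas Ccl6 and Ccl9 were at 47.4%, within the range of 46.0% to 53.7% of the other pairs.

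After filters, 6551 cells of 9133 barcodes were used. Samples held 64 to 1555 cells and 247765 to 15291578 UMIs (unique molecular identifiers, each standing for 1 captured transcript), and the smallest were the sham female (64 cells) and the sham male (106 cells). Each 1-week library mixed an injury with 1 sham sample, so injury and library coincided apart from the sham samples, and the 15-week libraries were a later batch, so that time and batch cannot be told apart. The 1-week libraries carried more Gm42418, a gene that collects ribosomal RNA reads (7.24% to 18.4% of UMIs against 1.33% to 2.36%), and more S100a8, a neutrophil gene (161 to 5475 CPM against 4.31 to 114 CPM, where CPM is the UMI count scaled to a common library total), although neutrophils bearing Ly6G were gated out at 1 week. The crush male at 15 weeks stood apart, with 714 of its 1555 cells in the lipid-laden macrophage gate. Libraries shared 1 to 3 barcodes, and the sexes matched their labels in Xist and Ddx3y.

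Which cells held each ligand was read with marker gates. A cell was placed in the gate whose marker genes, none of them a CC ligand, had the highest mean score, if at least 3 were detected, and 4999 cells (76.3%) were gated this way. Shares below are of a ligand's UMIs over all cells, set beside the share of all UMIs that the gate held. Gates with at least 20 cells in at least 3 samples were tested against the other gated cells of the same samples.

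Ccl8 and Ccl24 were higher in resident macrophages, the Lyve1 and Cd163 cells that populate the uninjured nerve sheath. This gate held 63.2% of the Ccl8 UMIs and 37.2% of the Ccl24 UMIs but 7.62% of all UMIs. The shares differed by time: at 1 week the gate held 25.5% of Ccl8 and 3.35% of Ccl24 beside 2.57% of all UMIs, and at 15 weeks 66.6% and 64.5% beside 9.66%. Within 8 samples (the 7 of 15 weeks and the sham male), Ccl8 ranged from 43.8 to 864 CPM (median 321) inside the gate and from 4.67 to 115 CPM (median 14.1) among the other gated cells, and Ccl24 from 110 to 357 CPM (median 225) against 2.06 to 66.7 CPM (median 20.8). Both were higher inside the gate in 8 of 8 samples, by 3.85 ± 0.46 (log2 difference ± SE, adjusted p = 1.19e-05) and 3.49 ± 0.51 (adjusted p = 6.98e-05). Ccl7 (2.08 ± 0.39) and Ccl12 (1.26 ± 0.46) also passed, so 4 of 9 members tested were higher, where 18.7% of 6954 genes were, but the Ccl12 call was lost with a stricter gate, which asked for at least 4 markers (1.00, adjusted p = 0.159), and in the 15-week samples alone (1.13, adjusted p = 0.0605). Ccl3 and Ccl4 were lower in 8 of 8 samples, by -2.54 ± 0.24 and -2.97 ± 0.32, and were the 2 members called lower, where 21% of genes were. Ccl6 (0.17 ± 0.19) and Ccl9 (0.15 ± 0.22) did not pass, at medians of 614 and 225 CPM inside the gate.

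Ccl2, Ccl6, Ccl7, Ccl9 and Ccl24 had most of their UMIs of the 1-week PSNL samples in the Arg1 Spp1 macrophages. These cells express the wound-healing enzyme arginase and the matrix protein osteopontin. The gate held 7.64% of all UMIs but 54.3% of those of Ccl7, 39.8% of Ccl9, 36.9% of Ccl2, 34.8% of Ccl24 and 23.4% of Ccl6. Of its 565 cells, 170 came from the PSNL female and 378 from the PSNL male of 1 week, and at most 9 from any other sample, and with fewer than 3 samples the gate was not tested. In the PSNL female, the 170 cells of the gate held 84.4% of the sample's Ccl7 and 85.4% of its Ccl24, and in the PSNL male 378 cells held 77.5% and 94%, beside 43.6% and 50.5% of all UMIs. Ccl9 was at 73.3% and 73.8%. Ccl2 was nearer to the share of all UMIs, at 63.7% in the female and 56.0% in the male. The gate held 1869 of 3217 Ccl6 UMIs in the female and 4825 of 6948 in the male. Of Ccl22, 0 UMIs lay in the gate in the female and 3 in the male.

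Ccl6 and Ccl9 were higher in Retnla Ear2 macrophages, marked by a resistin-like molecule and an eosinophil-associated ribonuclease. The gate held 6.16% of all UMIs, 22.8% of Ccl6 and 16.7% of Ccl9. Its 4 samples were all female: the crush female of 1 week, and PSNL F2, crush F1 and crush F2 of 15 weeks. They held at most 9 Arg1 Spp1 macrophages and 5 monocytes each. In these 4 samples, Ccl6 was at 1522 to 2672 CPM inside against 282 to 678 CPM outside. Ccl9 was at 602.5 to 868 CPM against 77.3 to 259 CPM, without overlap in either gene. Ccl6 was higher by 2.43 ± 0.21 (adjusted p = 3.68e-05), Ccl9 by 2.27 ± 0.21 (adjusted p = 5.77e-05), Ccl2 by 2.70 ± 0.54 and Ccl7 by 1.87 ± 0.53 (adjusted p = 0.0846 in the 15-week samples alone), 4 of 8 members tested, where 9.22% of genes were higher. Ccl12 was lower (-2.78 ± 0.80), where 9.87% of genes were. Other gates, scarce in these samples, held like levels in the PSNL female and male of 1 week. In Arg1 Spp1 macrophages Ccl6 was at 1726 and 1896 CPM and Ccl9 at 1313 and 1778 CPM. In monocytes they were at 2096 and 1906 CPM and at 828.5 and 1340 CPM.

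Ccl2, the monocyte attractant, was itself high in monocytes (Ly6c2 and Plac8 cells), which held 17.7% of its UMIs and 1.56% of all UMIs. The 3 samples tested differed widely, at 471 CPM in the PSNL female, 1872 CPM in the PSNL male and 44.6 CPM in the crush male. Ccl2 was higher inside the gate in 3 of 3 samples, by 1.78 ± 0.32 (adjusted p = 0.0051), and was the 1 of 10 members called higher, where 1.63% of genes were. Ccl3 (-1.67 ± 0.32), Ccl4 (-1.998 ± 0.49) and Ccl24 (-1.86 ± 0.49) were lower, as were Ccl8 and Ccl22, of which these monocytes held 0 UMIs, 5 members where 3.03% of genes were lower. With a stricter gate the calls of Ccl3 (adjusted p = 0.129) and Ccl4 (adjusted p = 0.213) were lost.

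Ccl3 and Ccl4 were higher in neutrophils. This gate held 1.62% of all UMIs, 14.7% of Ccl3 and 8.92% of Ccl4, and at 1 week 39.8% of Ccl3 and 26.1% of Ccl4 in 305 cells with 5.47% of the UMIs. Over all samples, ungated cells held 25.95% of Ccl3 and 28.3% of Ccl4 beside 17.3% of all UMIs. Inside the gate Ccl3 was at 1173, 1206 and 2301 CPM against 89.3 to 179 CPM outside, and Ccl4 at 1782, 3402 and 3666 CPM against 232 to 525 CPM. The groups did not overlap, and the differences were 3.90 ± 0.34 (adjusted p = 1.71e-19) and 3.17 ± 0.35 (adjusted p = 6.28e-14). The edgeR fit shares its estimate of spread across genes, so p-values this small do not measure the spread between these 3 samples alone. With Ccl6 (0.85 ± 0.33, adjusted p = 0.0399, or 0.0688 with a stricter gate), 3 of 10 members were higher, where 17.2% of genes were, and Ccl2, Ccl7, Ccl9, Ccl22 and Ccl24 were lower, where 12.6% of genes were. The median cell of this gate had 0.467 times the UMIs of its own sample. A gate of 23 cells with the eosinophil markers Ccr3, Alox15 and Prg2 held 0.192 times, and it showed 1657 CPM of Ccl3, 2533 CPM of Ccl4 and 5160 CPM of Ccl6, with no test since no sample had 20 such cells.

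Ccl4 was higher in Cd209a dendritic cells, which take up and present antigen, than in the other gated cells. Pooled over samples, it was at 743 CPM in this gate, 738 CPM in the ungated cells and 2484 CPM in neutrophils. In 9 samples Ccl4 was at 403 to 1751 CPM inside the gate (median 581) and 130 to 716 CPM outside (median 252), higher in 7 of 9 samples by 1.22 ± 0.37 (adjusted p = 0.0194), whereas Ccl3 differed by -0.24 ± 0.50 (adjusted p = 0.749). Ccl4 was the 1 of 9 members called higher, where 16.5% of genes were, and Ccl6, Ccl7, Ccl8, Ccl12 and Ccl24 were lower, where 18% of genes were. In the 15-week samples alone Ccl4 was higher in 5 of 5 (2.07, adjusted p = 0.00016), and in the 1-week samples alone it did not pass and was higher in 2 of 4 (0.21, adjusted p = 0.676). The difference between the times was not tested. Ccl3 was higher in the 15-week samples alone (0.80, adjusted p = 0.0124) and at -1.68 (adjusted p = 0.0523) in those of 1 week.

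Ccl12, a Ccr2 ligand of the mouse, was spread over the endoneurial microglia-like macrophages (30.5% of its UMIs and 18.3% of all), resident macrophages (18.8%) and interferon-responsive cells (18.6% of its UMIs and 3.27% of all). Ungated cells held 27.7% of its UMIs and 17.3% of all. Pooled over samples, Ccl12 was at 77.75 CPM in the microglia-like gate and 74.95 CPM in ungated cells. It was at 115 CPM in resident macrophages and 266 CPM in interferon-responsive cells. Across 9 samples Ccl12 was at 21.6 to 180 CPM in the microglia-like gate (median 98.5) and 1.23 to 203 CPM outside (median 25.4), higher in 8 of 9 samples by 1.10 ± 0.31 (adjusted p = 0.0128). It was the 1 of 9 members higher there, where 11.2% of genes were, and 6 were lower (Ccl2, Ccl6, Ccl7, Ccl8, Ccl9 and Ccl24), where 14.4% of genes were. Among interferon-responsive cells, 319 of the 428 Ccl12 UMIs came from 23 cells of the PSNL samples at 15 weeks, and over all cells a single one held up to 223 Ccl12 UMIs.

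Ccl22, which draws T cells toward dendritic cells, was found in the fewest cells, 114 of 6551. Migratory dendritic cells, the Ccr7 and Fscn1 cells that leave for lymph nodes, held 81.45% of its UMIs and 1.32% of all UMIs. The PSNL female had 87 Ccl22 UMIs in 20 such cells (1059 CPM) and the PSNL male 431 in 38 cells (1813 CPM), and no other sample had 20 cells. The lipid-laden macrophages, which carry Gpnmb and Fabp5, had no member higher of 9 tested, where 12.2% of genes were, and 5 lower, where 12.6% were (Ccl2, Ccl7, Ccl8, Ccl12 and Ccl24).

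**Figure D1:**
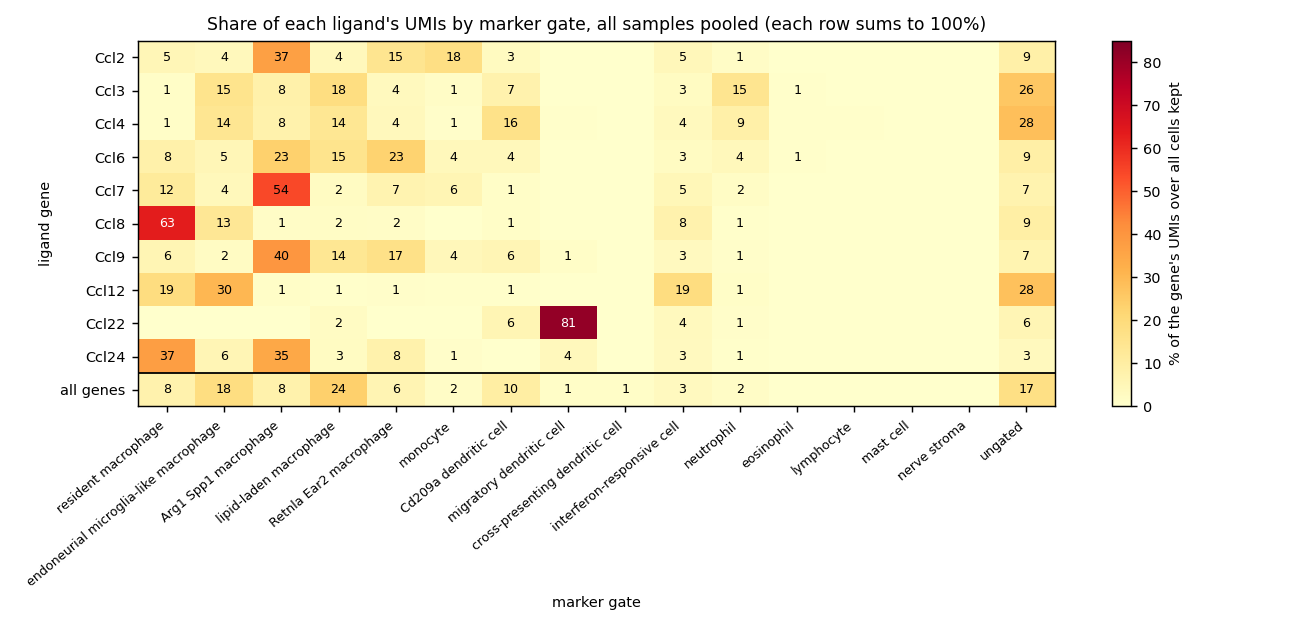
The map plots, for each ligand (rows), the percentage of its UMIs that lay in each marker gate (columns), all samples pooled, with the same share for all genes in the lowest row. The darkest fields are Ccl22 in migratory dendritic cells (81.45%), Ccl8 in resident macrophages (63.2%) and Ccl7 in Arg1 Spp1 macrophages (54.3%).

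Ccl3 with Ccl4, Ccl2 with Ccl7 and Ccl6 with Ccl9, each a pair of genomic neighbours, had the highest co-detection in single cells. Cells were thinned to 2000 UMIs each, which left out 600 of 6551, and the phi coefficient (the correlation of 2 yes-or-no detections) was taken within samples of at least 200 cells, of which at least 10 held each gene. Ccl3 and Ccl4 had a median phi of 0.363 over 11 samples (0.238 to 0.507), and 410 of 805 cells with Ccl3 also held Ccl4. Ccl2 and Ccl7 were at 0.335 over 4 samples (0.046 to 0.571), and Ccl6 and Ccl9 at 0.274 over 11 samples (0.15 to 0.438). Ccl8 and Ccl24, which lie on different chromosomes and share the resident macrophage gate, were at 0.23 over 7 samples (0.132 to 0.291). Ccl8 and Ccl12, 11.8 kb apart, were at 0.0632 over 8 samples (-0.0972 to 0.142), and Ccl4 and Ccl8 at -0.0766 (-0.115 to -0.0441), below 0 in all 8 samples. These are descriptions over cells that share a library and its free RNA, and doublets of cells with the same hashtag were not removed.

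**Figure D2:**
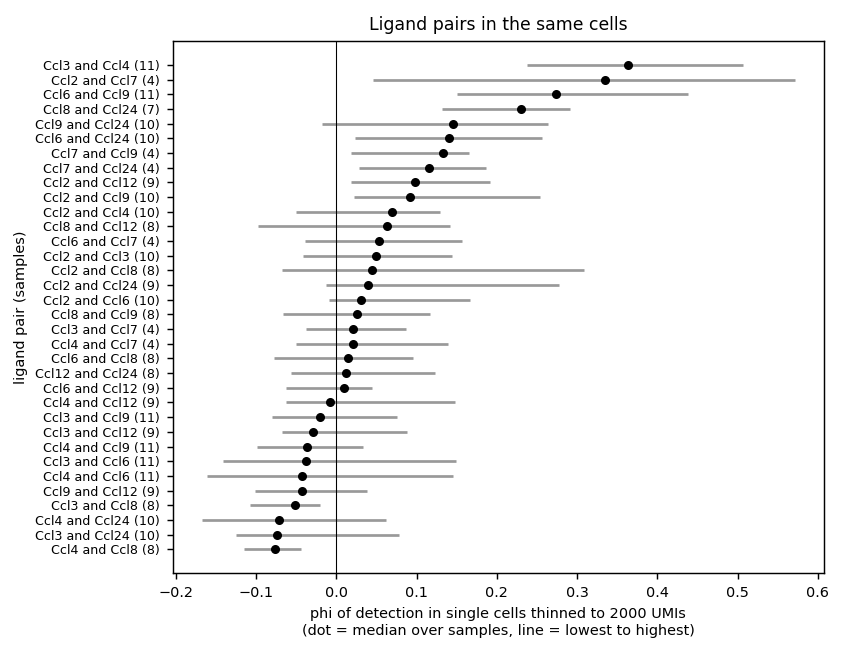
The plot gives the phi coefficient of detection for 34 pairs of ligands in cells thinned to 2000 UMIs, with the median over samples as a dot, the lowest to highest sample as a line and the number of samples in brackets. The pairs Ccl3 with Ccl4, Ccl2 with Ccl7, Ccl6 with Ccl9 and Ccl8 with Ccl24 are at the top, with medians of 0.363, 0.335, 0.274 and 0.23.

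The same pairs appeared when each ligand's level was correlated with 6178 genes over 50 sums of a gate within a sample, which share samples and gates. The gene most like Ccl3 was Ccl4 (Pearson r = 0.819), that most like Ccl6 was Ccl9 (0.813) and that most like Ccl2 was Ccl7 (0.79), and each held in reverse. Next came Plek (0.732) and Cd9 (0.701) for Ccl3, Tnf (0.672) and Ppp1r2 (0.664) for Ccl4, Carhsp1 (0.766) and Cd300ld (0.752) for Ccl6, and S100a10 (0.797) and S100a6 (0.796) for Ccl9. For Ccl2 they were Ccl9 (0.638) and Emp3 (0.609), and for Ccl7 Ccl24 (0.713) and Rap1b (0.633). Ccl22 was most like Cacnb3 (0.856), Ccr7 (0.836) and Ccl5 (0.81), Ccl8 like Gm4951 (0.85), Cp (0.822) and Cbr2 (0.797), Ccl12 like Gm15655 (0.837), Nfxl1 (0.835) and Aif1 (0.807), and Ccl24 like App (0.793), Ednrb (0.783) and Snx2 (0.76). Cacnb3, Ccr7 and Cbr2 were markers of the gates themselves.

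Levels in whole samples were then compared between injuries, as UMIs summed over the cells of a hashtag and given as CPM after TMM scaling, which aligns libraries on the bulk of their genes. In such sums, more cells of a type and more RNA per cell cannot be told apart.

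At 1 week, Ccl3 was the member that was higher after PSNL than after sham surgery. It was at 74.4 CPM in the sham female, 75.3 in the sham male, 305.5 in the PSNL female and 376 in the PSNL male, and the groups did not overlap. The log2 difference was 2.19 ± 0.41 (adjusted p = 0.0113), and 1 of 10 members was higher, where 3.2% of genes were, and 0 were lower, where 2.01% of genes were (5.21% in either direction). Plain library totals turned the split over all genes from 367 higher and 231 lower to 259 and 339, and Ccl3 stayed called. Ccl7 was at 4.38 and 21.0 CPM in sham (1 UMI in the female and 12 in the male) and at 106 and 206 CPM after PSNL, a difference of 3.32 ± 0.94 (adjusted p = 0.0584, or 0.00298 without the crush male of 15 weeks, which shares the fit). Ccl2 (2.22 ± 0.87, adjusted p = 0.164) and Ccl9 (1.40 ± 0.54, adjusted p = 0.158) were also above both sham samples in both PSNL samples. So were Ccl6 (adjusted p = 0.46) and Ccl24 (adjusted p = 0.264). Ccl12 (-2.07 ± 1.09, adjusted p = 0.302) and Ccl8 (adjusted p = 0.72) were below both sham samples. The share of all genes without such overlap is not given, and with 2 samples per group it can arise by chance. The Ccl3 call was lost without the neutrophil gate (1.58, adjusted p = 0.0952), with the other hashtag rule (1.23, adjusted p = 0.162) and without the sham female (adjusted p = 0.0747), the sham male (0.0946) or the PSNL male (0.0616).

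No member passed edgeR's test between crush and sham at 1 week, with 0 of 10 called, where 0.165% of genes were (0.0697% higher and 0.0958% lower). DESeq2 also called 0, and 1 member, Ccl24, had an unadjusted p under 0.05. With plain library totals in place of TMM scaling, the split over all genes went from 8 higher and 11 lower to 0 and 3. Ccl24 was at 65.6 and 59.6 CPM in sham and at 30.1 and 12.9 CPM after crush (-1.57 ± 0.66, adjusted p = 0.398), and Ccl3 at 131 and 142.5 CPM after crush (0.87 ± 0.42, adjusted p = 0.467). The sham samples held the fewest cells.

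PSNL and crush at 1 week differed in 5 of 10 members, all higher after PSNL, where 6.72% of genes were higher and 5.79% lower (12.5% in either direction). Ccl7 was at 106 CPM in the PSNL female and 206 in the male, and at 8.38 and 8.27 CPM after crush. Ccl2 was at 217 and 473 CPM after PSNL and at 56.7 and 35.2 CPM after crush. Neither gene's groups overlapped, and the differences were 4.23 ± 0.77 (adjusted p = 0.0052) and 2.93 ± 0.80 (adjusted p = 0.0326).

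Ccl24, the eosinophil attractant, was at 149 and 140.0 CPM after PSNL and at 30.1 and 12.9 CPM after crush, a difference of 2.80 ± 0.56 (adjusted p = 0.0082). The Ccr1 ligands Ccl9 and Ccl3 followed, Ccl9 at 919 and 1483 CPM against 408 and 275 CPM (1.82 ± 0.53, adjusted p = 0.0425) and Ccl3 at 305.5 and 376 CPM against 131 and 142.5 CPM (1.32 ± 0.35, adjusted p = 0.0289). PSNL samples were above crush samples in each of these genes. Ccl6 (0.96 ± 0.40, adjusted p = 0.141) and Ccl4 (0.90 ± 0.50, adjusted p = 0.265) did not overlap either but did not pass, and Ccl8, Ccl12 and Ccl22 overlapped. The members' median difference was 1.14 beside -0.02 for all genes. Plain library totals turned the split over all genes from 772 higher and 665 lower to 590 and 899, and 3 members stayed called, without Ccl3 (adjusted p = 0.0566) and Ccl9 (adjusted p = 0.0609). Without 1 injured 1-week sample, 3 (PSNL female), 2 (PSNL male), 2 (crush female) or 0 (crush male) members remained called, and without a sham sample 4. With library as a term among the 1-week samples, 0 members and 10 of 9756 genes were called, with the 5 members at differences of 1.24 to 6.38.

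**Figure D3:**
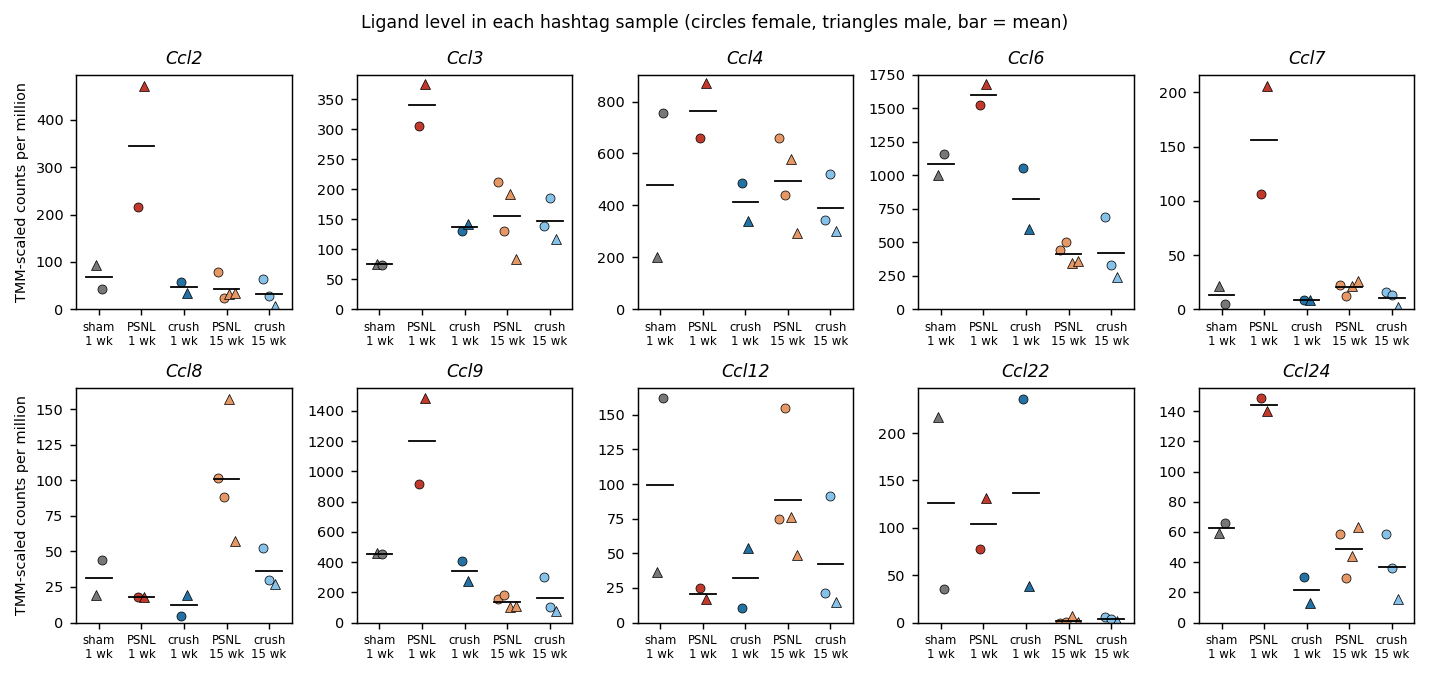
Each panel plots 1 ligand in TMM-scaled CPM, with 1 point for each of the 13 hashtag samples by group (circles female, triangles male) and a bar at the group mean. PSNL samples at 1 week lie above every other sample for Ccl2, Ccl3, Ccl6, Ccl7, Ccl9 and Ccl24, and Ccl22 is at most 7.06 at 15 weeks.

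The makeup of the 1-week samples also differed between PSNL and crush, and its part in the members' differences was not tested. Arg1 Spp1 macrophages were 32% and 43.2% of cells in the PSNL female and male and 2.71% and 0.331% after crush, and neutrophils 28.6% and 12.1% against 2.11% and 4.13%. With the cells of the Arg1 Spp1 gate left out, an alternative added after seeing the data, 1 of 10 members was called (Ccl3, 1.75, adjusted p = 0.0138). In plain CPM, Ccl24 went from 126 to 32.8 in the PSNL female and from 115 to 14.0 in the PSNL male, beside 27.6 and 11.9 after crush, and its difference from 2.80 to 0.35 (adjusted p = 0.815). Ccl9 went from 780.5 to 369 and from 1217 to 644, beside 370.3 and 255 after crush, and its difference from 1.82 to 0.84 (adjusted p = 0.383). Ccl7 kept a difference of 2.90 (adjusted p = 0.0578) and Ccl2 one of 2.61 (adjusted p = 0.0834), with both PSNL samples still above both crush samples. With the neutrophil gate left out instead, the difference of Ccl3 was 0.45 (adjusted p = 0.526) and Ccl2, Ccl7, Ccl9 and Ccl24 stayed called. Differences within the Arg1 Spp1 gate were not tested, since no crush sample had 20 such cells.

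**Figure D4:**
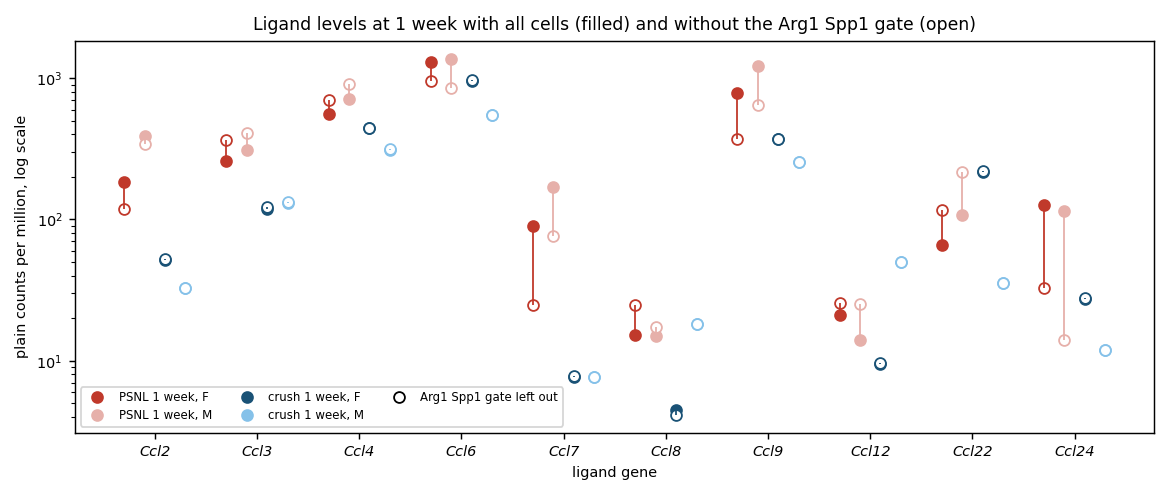
The plot gives each ligand at 1 week in plain CPM on a log axis, for the 4 injured samples, with all cells (filled) and without the Arg1 Spp1 gate (open), joined by a line. For Ccl24 the open PSNL points (32.8 and 14.0) lie beside the crush points (27.6 and 11.9), whereas for Ccl3 leaving the gate out raises the PSNL points.

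At 15 weeks no member passed edgeR's test between PSNL and crush, where 0% of 11485 genes were called. DESeq2 also called 0 of the 10, and Ccl8 was the 1 member with an unadjusted p under 0.05, as 556 genes had. PSNL samples F1, F2, M1 and M2 had 102, 88.3, 157 and 57.1 CPM of it and crush samples F1, F2 and M1 had 52.8, 29.7 and 27.1 CPM. The groups did not overlap, and the difference was 1.48 ± 0.39 with an unadjusted p of 0.0024 and an adjusted p of 0.962 (0.0515 to 1 over 25 alternatives), and 1.30 without the crush male. Ccl12 (1.16 ± 0.67), Ccl7 (1.18 ± 0.58), Ccl24 (0.43 ± 0.39), Ccl2 (0.38 ± 0.60) and Ccl4 (0.34 ± 0.38) overlapped, as did Ccl3, Ccl6, Ccl9 and Ccl22, whose differences lay between -0.43 and 0.08.

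Resident macrophages, the main holders of Ccl8, were 13.2% to 24% of cells after PSNL and 6.56% to 23.4% after crush at 15 weeks. Within that gate Ccl8 was at 235, 634, 864 and 304 CPM after PSNL and 338, 148 and 543 CPM after crush, overlapping, with a difference of 0.53 ± 0.36 (adjusted p = 1). Within the endoneurial microglia-like gate it was at 16.4, 71.0, 106 and 39.4 CPM against 18.3, 15.1 and 12.4 CPM, with F1 below 1 crush sample. The difference was 2.02 ± 0.50 (adjusted p = 0.526). Ccl24 (1.56 ± 0.30, adjusted p = 0.219) and Ccl7 (3.03 ± 0.71, adjusted p = 0.521) had the same sign. Ccl7 rested on 5, 16, 15 and 20 UMIs against 5, 1 and 1. Ccl2 (1.66), Ccl12 (1.36), Ccl9 (0.82), Ccl6 (0.50) and Ccl4 (0.26) also had this sign, whereas Ccl3 was at -0.11. No member was called within any gate at either time (edgeR; 0 of 9 in each of these 2 gates, 0 of 5 in lipid-laden macrophages and 0 of 6 in Cd209a dendritic cells), where 0% of genes were called at 15 weeks in these 4 gates (223, 374, 283 and 301 genes had an unadjusted p under 0.05) and 0.922% at 1 week in the Cd209a dendritic cells, the only gate testable then.

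From 1 to 15 weeks after PSNL, 7 of 10 members were lower and 2 higher, where 27% and 29.3% of genes were (56.3% in either direction). Plain library totals moved the split over all genes from 3360 higher and 3104 lower to 4835 and 1637 and the median of all genes from 0.03 to 0.46, and Ccl3 was then not called (-0.70, adjusted p = 0.0718). Ccl2 went from 217 and 473 CPM to between 24.4 and 77.8 CPM in the 4 later samples, Ccl7 from 106 and 206 to between 12.4 and 26.1 CPM, and Ccl9 from 919 and 1483 to between 99.7 and 185 CPM. None of these overlapped, with differences of -3.04 ± 0.62, -2.94 ± 0.54 and -3.13 ± 0.43 (adjusted p = 0.0012, 0.00055 and 7.09e-05). Ccl22 went from 77.2 and 132 CPM to between 0 and 7.06 CPM (-5.48 ± 0.95), with 0, 2, 33 and 1 UMIs in F1, F2, M1 and M2, and migratory dendritic cells from 3.76% and 4.35% of cells to at most 0.96%. Ccl6 (-1.97 ± 0.33), Ccl24 (-1.57 ± 0.42) and Ccl3 (-1.14 ± 0.29) were lower as well, and Ccl4 was not called (-0.63 ± 0.42).

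Ccl8 and Ccl12, which lie 11.8 kb apart, were higher at 15 weeks after PSNL. Ccl8 went from 18 and 18.1 CPM to between 57.1 and 157 CPM (2.49 ± 0.50, adjusted p = 0.0011), and Ccl12 from 24.6 and 17.2 CPM to between 49.0 and 155 CPM (2.11 ± 0.85, adjusted p = 0.0499). Neither overlapped, and resident macrophages were 0.94% and 0.572% of cells at 1 week and 13.2% to 24% at 15 weeks. The sham male and female of 1 week had 32.1% and 43.8% resident macrophages, with Ccl8 at 19.3 and 43.8 CPM. Inside that gate Ccl8 was at 43.8 and 105 CPM in these sham samples and 235 to 864 CPM in the 15-week PSNL samples. Endoneurial microglia-like macrophages, the gate with the largest share of Ccl12, were 1.32% and 1.03% of cells at 1 week and 27.3% to 30.2% at 15 weeks. The part of these shares in the changes was not tested. The Ccl12 call was lost without either PSNL sample of 1 week or without F1, F2 or M1 of 15 weeks (adjusted p = 0.0634 to 0.24), and also when the highest hashtag had to be 3 times the second (1.67, adjusted p = 0.104), without the cell filter (1.93, adjusted p = 0.0626) and without the Arg1 Spp1 gate (1.55, adjusted p = 0.138). Ccl3 was not called without the neutrophil gate (-0.14, adjusted p = 0.764), and Ccl24 turned to 0.87 (adjusted p = 0.197) without the Arg1 Spp1 gate.

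After crush, Ccl22 and Ccl6 were lower at 15 weeks and Ccl8 was higher, 2 and 1 of 10 members, where 18.5% of genes were lower and 24.1% higher, 42.6% in all (2765 higher and 2123 lower of all genes, or 3347 and 1244 with plain library totals). Ccl22 was at 236 and 38.3 CPM at 1 week and at 5.84, 4.24 and 1.25 CPM at 15 weeks (-5.42 ± 1.01, adjusted p = 0.0011). Ccl8 was at 4.93 and 19.6 CPM and then at 52.8, 29.7 and 27.1 CPM (1.48 ± 0.53, adjusted p = 0.0392), without overlap, and the call was lost when any of 5 samples was left out, most of all the crush female of 1 week (0.89, adjusted p = 0.244) and F1 of the 15-week crush samples (1.11, adjusted p = 0.11), and when the highest hashtag had to be 3 times the second (1.17, adjusted p = 0.0777). Ccl6 overlapped, at 1056 and 597 CPM against 687.5, 330 and 243 CPM (-0.98 ± 0.36, adjusted p = 0.0439), and its call was lost when any of 10 samples was left out (adjusted p = 0.0533 to 0.392), with plain library totals (0.131), without the neutrophil gate (0.0516) and with DESeq2 (0.0516). Ccl2 (-0.50 ± 0.72), Ccl7 (0.11 ± 0.78) and Ccl24 (0.79 ± 0.52), lower after PSNL, were not called after crush, but Ccl24 was higher without the crush male of 15 weeks (1.23, adjusted p = 0.0253). Ccl9 (-1.09 ± 0.47, adjusted p = 0.0786) was lower without F1 of the 15-week crush samples (-1.94, adjusted p = 0.00065).

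**Figure D5:**
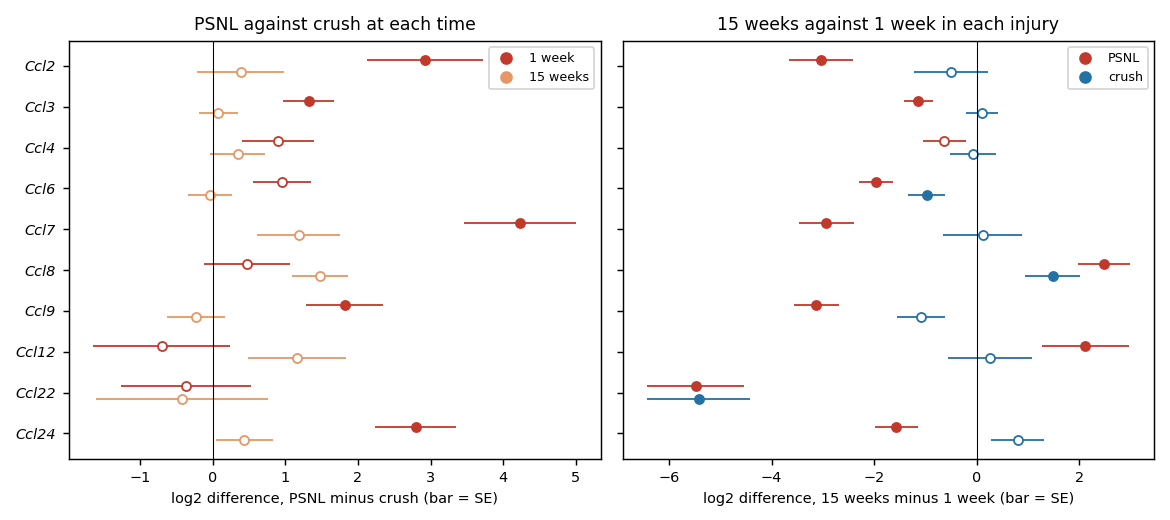
Points give the log2 difference of each ligand with its SE, PSNL minus crush at each time (left) and 15 weeks minus 1 week in each injury (right), filled where the adjusted p is under 0.05. The differences between injuries at 1 week reach 4.23 (Ccl7) and none is filled at 15 weeks.

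Whether the change over time differed between the injuries was tested as an interaction, and 0 of 10 members passed edgeR's test, where 7.73% of genes did, 3.4% higher and 4.33% lower (391 and 497 genes, or 656 and 334 with plain library totals). Ccl24 (-2.36 ± 0.67, adjusted p = 0.05002), Ccl7 (-3.05 ± 0.95, adjusted p = 0.0691), Ccl9 (-2.04 ± 0.66, adjusted p = 0.0767), Ccl2 (-2.54 ± 0.98, adjusted p = 0.13) and Ccl3 (-1.24 ± 0.43, adjusted p = 0.101) had unadjusted p-values under 0.05. DESeq2 called 3 of them (Ccl7, Ccl9 and Ccl24), and edgeR called 4 of them (Ccl2, Ccl7, Ccl9 and Ccl24) without the crush male of 15 weeks.

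Of 14 CC receptors, 6 were measured well enough to test. Ccr1, the receptor of Ccl3, Ccl6 and Ccl9, was higher after PSNL than crush at 1 week (1.94 ± 0.50, adjusted p = 0.0254), the 1 receptor called, where 6.72% of all genes were higher. From 1 to 15 weeks after PSNL 5 of 6 were lower, where 27% of all genes were, among them Ccr1 (-4.33 ± 0.43), Ccr7 (-4.87 ± 0.78) and Ccr3 (-3.11 ± 0.86), and after crush Ccr1, Ccr3 and Ccr7 were, where 18.5% of all genes were. Ccr2, the receptor of Ccl2, Ccl7 and Ccl12, was called in no comparison and differed by -0.47 ± 0.39 over time after PSNL. Of the 8 other CC ligands, 3 were tested, and Ccl5 was lower at 15 weeks after PSNL (-2.41) and after crush (-2.54).

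NF-kB targets, inflammatory genes induced through the same factor as several chemokines, were higher after PSNL than crush at 1 week for 9 of 12 genes, led by Cd14 (3.40), Tnf (2.54), Ier3 (3.88) and Nfkbiz (1.60), where 6.72% of all genes were, and than sham for 6 of 12, where 3.2% were. Over time after PSNL 12 of 12 were lower, where 27% of all genes were, and 11 of 12 were lower in the interaction, where 4.33% were. After crush 2 were higher and 3 lower over time, where 24.1% and 18.5% of all genes were. The median difference of the list between PSNL and crush at 1 week was 2.68. Their summed level in plain CPM was 11010 and 10420 in the PSNL samples of 1 week, 1082 to 3271 in the other 1-week samples and 828.9 to 1323 at 15 weeks. Of 12 immediate early and heat shock genes, which rise in cells handled at 37 °C, 2 (Jun and Hspa1a) were higher after PSNL than crush, 0 than sham, and 10 were lower over time after PSNL, beside the same shares of all genes. Their summed level was 8643 to 9618 CPM in the PSNL samples of 1 week, 3373 to 8067 CPM in the other 1-week samples and 2411 to 4216 CPM at 15 weeks, and its part in the ligands' differences was not tested.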

How the data were processed

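The authors deposited raw counts, UMIs for each gene and barcode, for 4 10x libraries, made with Cell Ranger 6.0.0 at 1 week and, per the file headers, a later release at 15 weeks (GRCm38, Cell Ranger 6.0.0 and Seurat 5.1.0 stand in the submitters' processing notes; whether intronic reads were counted is not given in the sources used here). Hashtag counts were split at the valley of their log10 distribution, and barcodes with 1 hashtag, at least 500 genes and under 10% mitochondrial UMIs were kept. Barcodes with several hashtags (1382) were left out, and no further doublet caller was run. They were 713 of 2471 and 515 of 1920 barcodes in the PSNL and crush libraries of 1 week. At 15 weeks they were 106 of 2067 and 48 of 2675. Doublets of cells with the same hashtag are not removed by this rule. Counts were summed per hashtag (13 samples, 247765 to 15291578 UMIs) and per hashtag and gate. Differences were fitted over all 13 samples with edgeR 4.0.16 (quasi-likelihood F-test, TMM, filterByExpr) in R 4.3.3, with Benjamini-Hochberg adjustment over all genes tested and a threshold of 0.05, and gates were tested with the sample as a block. DESeq2 1.42.0 and Seurat 5.3.0 (HTODemux) served as alternatives. Group CPM is TMM-scaled, and CPM in gates is plain. Scripts were tested on simulated data. All 10 members were reported in every sample. From the lists of other CC ligands, CC receptors, NF-kB targets and immediate early and heat shock genes, counts were given, and by name the members' receptors and up to 4 genes with the smallest adjusted p. Of these, 1 gene, and 1 coding window, are not reported here. The 3 genes most like each member were named among genes with a mean of at least 20 CPM. The members, lists and tests were chosen with earlier results of these data known. Alternatives were the hashtag rule, cell and gene filters, scaling, gates and samples left out, library or sex as a term, and a replicate block.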

Additional observations from a re-analysis of the deposited data

Results flagged for a closer look

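Ccl22 stood out in 1 sample of a group of 4: at 15 weeks after PSNL it was at 7.058 TMM-scaled CPM in M1 (33 UMIs), while F1, F2 and M2 were at 0, 0.478 and 0.31 CPM (0, 2 and 1 UMIs), and the gap to the next sample, as a share of the range, passed Dixon's critical value of 0.829. M1 also held 5 migratory dendritic cells, against 0, 2 and 0 in F1, F2 and M2. The test was made for 10 members in this group and passed for 1, and chance passes about 1 in 20 groups.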

How the results depend on the processing

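Counts below are of the 10 members called. PSNL against sham at 1 week (1 member) gave 0 with HTODemux and without the neutrophil gate, 2 without the cell filter, 3 without the 5% of cells with the most UMIs, 4 without the low-count filter, 2 with DESeq2, and 0 to 3 leaving out 1 sample. PSNL against crush at 1 week (5) gave 3 with plain library totals, 1 without the Arg1 Spp1 gate, 0 with library as a term, and 0 to 6 leaving out 1 sample. PSNL over time (9) gave 8 with the 3-times hashtag rule, without the cell filter, with plain library totals and without the neutrophil gate, 7 without the Arg1 Spp1 gate, and 7 to 9 leaving out 1 sample. Crush over time (3) gave 4, with Ccl9 added, with HTODemux, without the 5% of cells with the most UMIs, without the low-count filter and with sex as a term, 2 with the 3-times rule, plain library totals, DESeq2 and without the neutrophil gate, and 1 to 3 leaving out 1 sample. The interaction (0) gave 4 without the 5% of cells with the most UMIs, 5 without the low-count filter, 1 without the neutrophil gate, 1 with sex as a term, 3 with DESeq2, and 0 to 4 leaving out 1 sample. Of gate and member pairs, 43 were called, and 31 with the stricter gate, 21 in the 1 week samples alone and 28 in the 15 week samples alone, where fewer gates had enough samples. Of the 43, those settings tested 34, 19 and 29 and kept 30, 18 and 26, and they added 1, 3 and 2 other calls. Crush against sham and PSNL against crush at 15 weeks gave 0 members in every alternative run. Of single values, 1726 kept their side of the threshold, 42 passed it, 74 lost it and 2 reversed: Ccl24 over time after PSNL, at 0.87 (adjusted p = 0.197) without the Arg1 Spp1 gate, and Ccl3 in Cd209a dendritic cells, at 0.80 (adjusted p = 0.0124) in the 15 week samples alone. A change of sign in a value called in neither setting was not counted. The cause was not tested. Leaving out the Arg1 Spp1 gate and sex as a term were chosen after seeing the data.

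Over all genes, PSNL against sham went from 367 higher and 231 lower to 599 and 484 without the cell filter, 217 and 122 without the Arg1 Spp1 gate and 65 and 67 with library as a term. PSNL against crush at 1 week went from 772 and 665 to 441 and 228 without that gate and 10 and 0 with library as a term, and the interaction from 391 and 497 to 130 and 216 without that gate. Crush against sham went from 8 and 11 to 0 and 3 with plain library totals, 86 and 66 without the low-count filter, 56 and 85 with DESeq2, 38 and 46 without the cell filter, 28 and 31 without the 5% of cells with the most UMIs, 25 and 25 with sex as a term, 18 and 20 with HTODemux, 4 and 8 without the neutrophil gate and 0 and 0 with library as a term, and that count rested on single samples, with 89 and 23 without the crush female of 1 week, 0 and 0 without the crush male of 1 week, 45 and 36 without the crush male of 15 weeks, 10 and 22 without the crush F2 of 15 weeks, 14 and 15 without F1, and at most 3 lower and 1 higher without the sham female, either PSNL sample of 1 week or any PSNL sample of 15 weeks. PSNL against crush at 15 weeks went from 0 and 0 to 1 and 7 without the low-count filter, 0 and 2 with sex as a term and 0 and 5 with DESeq2. Leaving out the PSNL male of 1 week gave 99 and 51 (PSNL against sham), 247 and 115 (PSNL against crush) and 72 and 126 (interaction), and leaving out the crush male of 1 week gave 219 and 168 (PSNL against crush), 1870 and 1136 (crush over time) and 85 and 122 (interaction). With the replicate block at 15 weeks, 0 members and 3 genes (1 higher, 2 lower) were called, and Ccl8 was at 1.70 (adjusted p = 0.452). Equal numbers did not pair the samples: deviations correlated at 0.086 (F1), 0.18 (F2) and 0.123 (M1), and crush F1 correlated better with PSNL F2 (0.26) and crush M1 with PSNL M2 (0.43). The sham samples, with 64 and 106 cells, limit the depth.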
